A study of Mus musculus with 3 samples.

Results

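The genes described here encode proteins of small-RNA silencing and of the CCR4-NOT deadenylase complex: Ago1, Ago2, Dicer1, Cnot2, Cnot3, Cnot4, Cnot6, Cnot6l, Cnot7 and Cnot8. They were chosen by gene symbol, with earlier results of these arrays known, and every probe set annotated to such a symbol alone was taken. The 10 symbols gave 26 probe sets of 9 genes, out of 20380 probe sets with 1 gene symbol. No probe set was annotated to Ago1 alone, and its expression is therefore not analysed here. The RNA came from C2C12 cells, a mouse myoblast line, in 3 groups of 1 array each: cells given diacylglycerol kinase zeta (DGK-zeta, which phosphorylates diacylglycerol to phosphatidic acid) by transfection, cells given enhanced green fluorescent protein (EGFP) in the same way, and untreated cells. All carry the time label 12 h, and the cells had been in plates for 18 h before they were transfected with FuGene. Neither the promoter or sequence of the constructs nor the share of cells that took them up is stated in the labels.

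Small RNAs silence messenger RNAs through Argonaute proteins. Dicer cuts hairpin precursors into mature microRNAs, an Argonaute protein carries the microRNA to its target, and its partner proteins bring in CCR4-NOT, which shortens the poly(A) tail before the message is decapped and degraded. CCR4-NOT also acts without microRNAs, through RNA-binding proteins and through the BTG/TOB family, which bind its Caf1 deadenylases.

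With 1 array per group there was no replicate against which to check a difference, and no test was run. Signals are MAS5 intensities on a linear scale, which are comparable between arrays for 1 probe set but not between probe sets. A probe set counted as measured at a signal of 107.2 or more, the 50th percentile of all values pooled, which is called the floor. Ratios are given on the log2 scale, where -1 is 2-fold lower. Lower signal can come from fewer cells that express a gene or from less RNA per cell, which cannot be told apart in bulk RNA. Dgkz, the transfected gene, was 12.8-fold above EGFP cells and 8.98-fold above untreated cells by its brighter probe set. At least 1 probe set reached the floor for 7 of 10 myoblast marker genes on each array, Myf5 and Des among them, whereas Myod1 was under it everywhere with signals of 23.7 in DGK-zeta cells, 26.5 in EGFP cells and 35.1 in untreated cells. Of 6 genes of differentiated muscle, Acta1 reached the floor in EGFP and untreated cells and the others nowhere. Of markers of other cells, Twist2 of the fibroblast list was measured on each array and Csf1r of the blood cell list in untreated cells, and no epithelial or endothelial marker was measured. The error that these arrays can show is the spread between probe sets of a gene. From the 2 brightest probe sets of 2251 genes, the SD of a single probe set's log2 ratio was 0.40 for DGK-zeta over EGFP, 0.50 for DGK-zeta over untreated and 0.27 for EGFP over untreated.

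Probe sets of 4 of the 9 genes had much less signal in DGK-zeta cells than on both other arrays: those of Ago2, Cnot3, Cnot6 and Cnot6l, each by 1 probe set. A probe set of Cnot2 had more. Of the 26 member probe sets, 22 were measured on all 3 arrays, 2 on some and 2 on none. Of the 23 member probe sets with a ratio in both comparisons, 4 were at least 2-fold lower than on both controls, where 2.71% of all 10629 named probe sets with both ratios were, and 1 was at least 2-fold higher, where 0.423% were. These genes were picked with such values in view, so nothing is read from the difference to those shares, and both ratios share the DGK-zeta array. Counted singly, 4 member probe sets were at least 2-fold lower than in EGFP cells (4.28% of all) and 4 lower than in untreated cells (5.21% of all). For the EGFP array against the untreated one, 1 was lower (0.785% of all) and 1 higher (0.447% of all). Of the 23 ratios of DGK-zeta over EGFP 16 were within 1.5-fold, or 69.6% against 81.7% of all named probe sets. Of 24 over untreated 16 were, or 66.7% against 77.9%. In all of these shares an array under the floor was set to the floor, so such ratios may be larger than counted. Among the 16 over untreated, those of Cnot4 1421000_at and Cnot4 1450083_at are of this kind. With the arrays scaled to one median over all named probe sets, 1.25% of all were 2-fold lower than both controls and 1.85% higher, so the order of these shares depends on the scaling. The median of the member ratios over EGFP was 0.01, beside -0.05 for all named probe sets, and that over untreated was 0.09, beside -0.05.

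**Figure D1:**
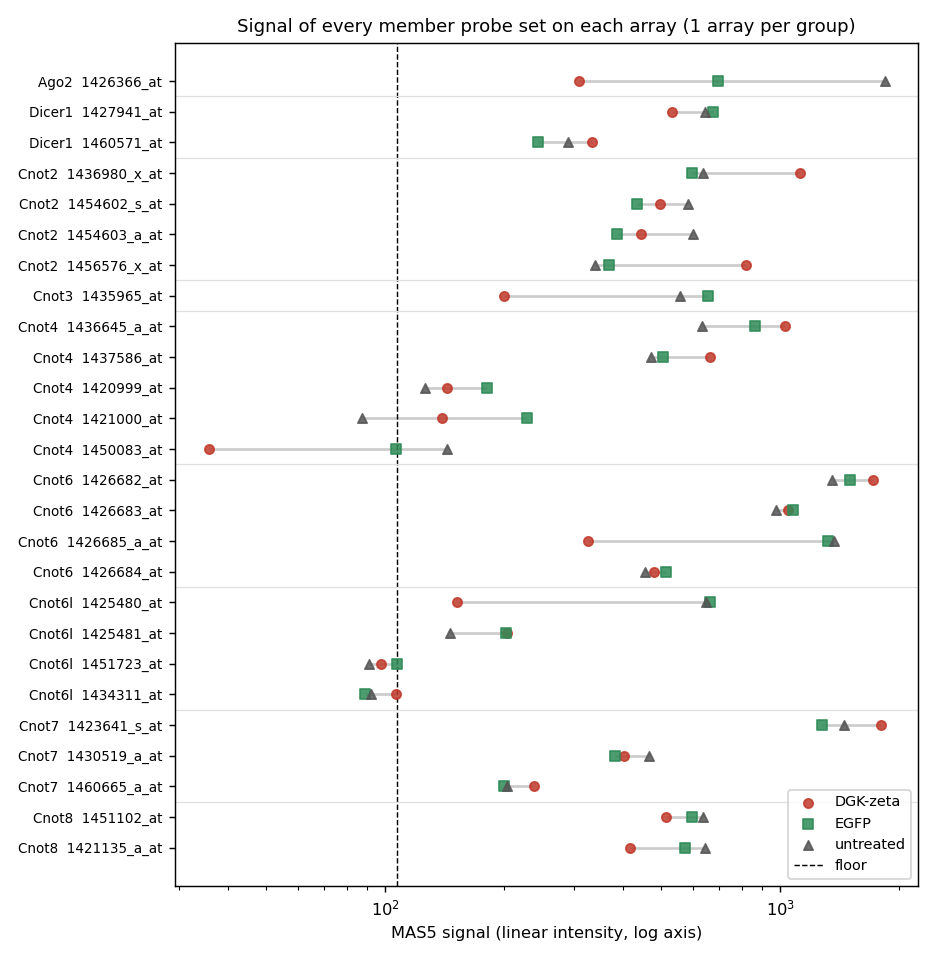
MAS5 signal of the 26 member probe sets, 1 row each, on a log axis; circles are DGK-zeta, squares EGFP and triangles untreated cells, and the dashed line is the floor at 107.2. In the rows of Ago2, Cnot3, Cnot6 1426685_a_at and Cnot6l 1425480_at the circle lies far left of both other symbols, and in those of both Cnot2 _x_at probe sets far right.

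Ago2 encodes the Argonaute protein that can cut a paired target itself, and it had 1 probe set, 1426366_at. Its signal was 309 in DGK-zeta cells, 698 in EGFP cells and 1839 in untreated cells. The 3 arrays were thus well apart, with EGFP cells between the others. The signal was 2.26-fold lower in DGK-zeta than in EGFP cells (log2 ratio -1.18), 5.96-fold lower than in untreated cells (-2.57) and 2.63-fold lower in EGFP than in untreated cells (-1.40). The last value was the single member ratio at least 2-fold lower between the controls, and 0.274% of named probe sets had one as low. EGFP cells were thus further from untreated than from DGK-zeta cells on the log2 scale. With the arrays scaled to one median over all named probe sets, the ratio over EGFP was -0.81, no longer 2-fold. No second probe set annotated to Ago2 alone was there to compare.

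The 3 named probe sets of other genes with the pattern most like that of Ago2 were those of Usp1, Ppig and Dhx36. Usp1 1423674_at, of a ubiquitin-specific protease, had signals of 244 in DGK-zeta cells, 533 in EGFP cells and 1464 in untreated cells. Its distance from Ago2 was 0.08, taken over the pair of log2 ratios DGK-zeta over EGFP and EGFP over untreated, so over 3 arrays. Ppig 1436505_at, of a cyclophilin, lay at 0.20 and Dhx36 1424398_at, of an RNA helicase that unwinds G-quadruplexes, at 0.23.

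Dicer1, the ribonuclease that releases microRNAs from their precursors, had 2 probe sets that pointed opposite ways. Probe set 1427941_at had signals of 532 in DGK-zeta cells, 678 in EGFP cells and 646 in untreated cells, a log2 ratio of -0.35 over EGFP and -0.28 over untreated. Probe set 1460571_at had 334 in DGK-zeta cells, 244 in EGFP cells and 290.3 in untreated cells, with log2 ratios of 0.46 over EGFP and 0.20 over untreated. They differed by 0.80 over EGFP, and 15.6% of the 1542 genes with 2 measured probe sets differed by as much or more.

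Cnot2 and Cnot3 encode the NOT-box subunits that pair with each other on the Cnot1 scaffold. Cnot3 had 1 probe set, 1435965_at, with signals of 200.3 in DGK-zeta cells, 658 in EGFP cells and 556 in untreated cells. Both controls lay close together and the DGK-zeta array far below, 3.29-fold lower than EGFP (log2 ratio -1.72) and 2.78-fold lower than untreated (-1.47). Of all named probe sets 0.617% had a ratio over EGFP as low. The most similar patterns were those of Mapk8 1437045_at, the kinase JNK1, at a distance of 0.03, of Ttc3 1416483_at at 0.03 and of Hipk2 1424863_a_at, a nuclear kinase, at 0.06.

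The 4 probe sets of Cnot2 fell into pairs. Probe set 1456576_x_at had signals of 819 in DGK-zeta cells, 369 in EGFP cells and 340.5 in untreated cells, 2.22-fold higher than EGFP (log2 ratio 1.15) and 2.40-fold higher than untreated (1.27). Probe set 1436980_x_at had 1125 in DGK-zeta cells, 599 in EGFP cells and 638 in untreated cells, with log2 ratios of 0.91 over EGFP and 0.82 over untreated, both under 2-fold. In both, the DGK-zeta array was the highest and the controls were close together. The other pair gave a different picture. Probe set 1454602_s_at had 497 in DGK-zeta cells, 434 in EGFP cells and 585 in untreated cells (log2 ratio 0.20 over EGFP and -0.23 over untreated), and 1454603_a_at had 446 in DGK-zeta cells, 386 in EGFP cells and 601 in untreated cells (log2 ratio 0.21 over EGFP and -0.43 over untreated). The suffix _x_at marks sets with probes that can also match other transcripts. Over all named probe sets with that suffix, 2.10% were at least 2-fold higher than in EGFP cells, against 0.497% of all, and 6.70% at least 2-fold higher than in untreated cells, against 1.84% of all. Whether other transcripts contribute to the 2 Cnot2 probe sets was not tested.

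Cnot4, a RING-type ubiquitin ligase that associates with the complex, had 5 probe sets. The brightest, 1436645_a_at, had signals of 1031 in DGK-zeta cells, 862 in EGFP cells and 632 in untreated cells (log2 ratio 0.26 over EGFP and 0.70 over untreated). The next, 1437586_at, had 663 in DGK-zeta cells, 506 in EGFP cells and 469.7 in untreated cells (log2 ratio 0.39 over EGFP and 0.50 over untreated). Both were highest in DGK-zeta and lowest in untreated cells, but by less than 2-fold. The other 3 were dim. Probe set 1420999_at had 144 in DGK-zeta cells, 181 in EGFP cells and 126 in untreated cells (log2 ratio -0.33 over EGFP and 0.18 over untreated). Probe set 1421000_at had 139 in DGK-zeta cells, 228 in EGFP cells and 87.5 in untreated cells, so that EGFP cells were at least 2.13-fold above untreated cells, which lay under the floor. That was the single member ratio at least 2-fold higher between the controls. DGK-zeta cells were at -0.71 over EGFP by it and at least 1.30-fold above untreated cells. Probe set 1450083_at had 35.8 in DGK-zeta cells, 106.7 in EGFP cells and 143 in untreated cells. Only its untreated value reached the floor, and DGK-zeta cells were at least 1.33-fold lower.

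Cnot6 and Cnot6l encode the alternative Ccr4-type deadenylases of the complex, which belong to the exonuclease-endonuclease-phosphatase family. Each gene had 1 probe set about 4-fold lower in DGK-zeta cells beside others that did not differ by 2-fold. Cnot6 1426685_a_at had signals of 325 in DGK-zeta cells, 1322 in EGFP cells and 1369 in untreated cells, which is 4.07-fold lower than EGFP (log2 ratio -2.02) and 4.21-fold lower than untreated (-2.07). The other 3 Cnot6 probe sets had similar signals on every array. Probe set 1426682_at had 1723 in DGK-zeta cells, 1499.7 in EGFP cells and 1356 in untreated cells (log2 ratio 0.20 over EGFP and 0.35 over untreated). Probe set 1426683_at had 1048 in DGK-zeta cells, 1078 in EGFP cells and 978 in untreated cells (log2 ratio -0.04 over EGFP and 0.10 over untreated), and 1426684_at had 479.6 in DGK-zeta cells, 514 in EGFP cells and 455 in untreated cells (log2 ratio -0.10 over EGFP and 0.08 over untreated). All 4 are annotated to the same source sequence. Their log2 ratios over EGFP spanned 2.22, a span reached by 6.90% of the 29 groups of 4 measured probe sets that share gene and source sequence. Over untreated they spanned 2.42, reached by 10.3%. Both shares count the Cnot6 group itself. Nothing is read from them, because the genes were chosen with earlier results known. Between EGFP and untreated cells the same 4 spanned 0.23, which is narrower than the median of 0.52 over those groups.

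Cnot6l 1425480_at had signals of 152 in DGK-zeta cells, 663 in EGFP cells and 647 in untreated cells. Both controls agreed closely, and DGK-zeta was 4.37-fold lower than EGFP (log2 ratio -2.13) and 4.26-fold lower than untreated (-2.09), the lowest member ratio over EGFP. Probe set 1425481_at, annotated to the same source sequence, had 204 in DGK-zeta cells, 203 in EGFP cells and 146 in untreated cells (log2 ratio 0.01 over EGFP and 0.48 over untreated). Their span of 2.13 over EGFP was reached by 0.0931% of the 1074 pairs of measured probe sets with a shared gene and source sequence, and that of 2.58 over untreated by 0.559%. The Cnot6l pair is itself counted in these shares. Nothing is read from them, because the genes were chosen with earlier results known. The 2 remaining probe sets lay under the floor on all arrays. Of these, 1451723_at had 97.4 in DGK-zeta cells, 106.9 in EGFP cells and 90.9 in untreated cells, and 1434311_at had 106.6 in DGK-zeta cells, 89.1 in EGFP cells and 92.1 in untreated cells. The patterns most like that of Cnot6l 1425480_at were those of Camk2g 1423942_a_at, a calcium and calmodulin-dependent kinase, at a distance of 0.11, of Lpcat1 1424459_at, an acyltransferase of phospholipids, at 0.11 and of Purb 1419642_at, a nucleic acid-binding protein, at 0.12.

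Probe sets of a gene could disagree elsewhere too. Of 143 genes with 2 or more measured probe sets and at least 1 of them 2-fold lower than on both controls, 115, or 80.4%, had another within 1.5-fold of both controls. Cnot6 and Cnot6l are among them, and the 115 were 5.11% of the 2251 genes with 2 or more measured probe sets. Of the control probe sets for transcript ends, those of Actb moved with the DGK-zeta array: the Actb 3' to 5' signal ratio was 2.55 in DGK-zeta cells, 1.43 in EGFP cells and 1.27 in untreated cells, while that of Gapdh differed little, at 0.931 in DGK-zeta cells, 0.902 in EGFP cells and 0.841 in untreated cells. The Actb control signals themselves were lower in DGK-zeta cells. At the 3' end they were 7437 in DGK-zeta cells, 18961 in EGFP cells and 20028 in untreated cells. At the 5' end they were 2914 in DGK-zeta cells, 13297 in EGFP cells and 15806 in untreated cells. The Gapdh signals were lower by less, at the 5' end 12470 in DGK-zeta cells, 16819 in EGFP cells and 17712 in untreated cells. The part of transcript ends in the low probe sets of Ago2, Cnot3, Cnot6 and Cnot6l was not tested, since probe positions were not used.

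**Figure D2:**
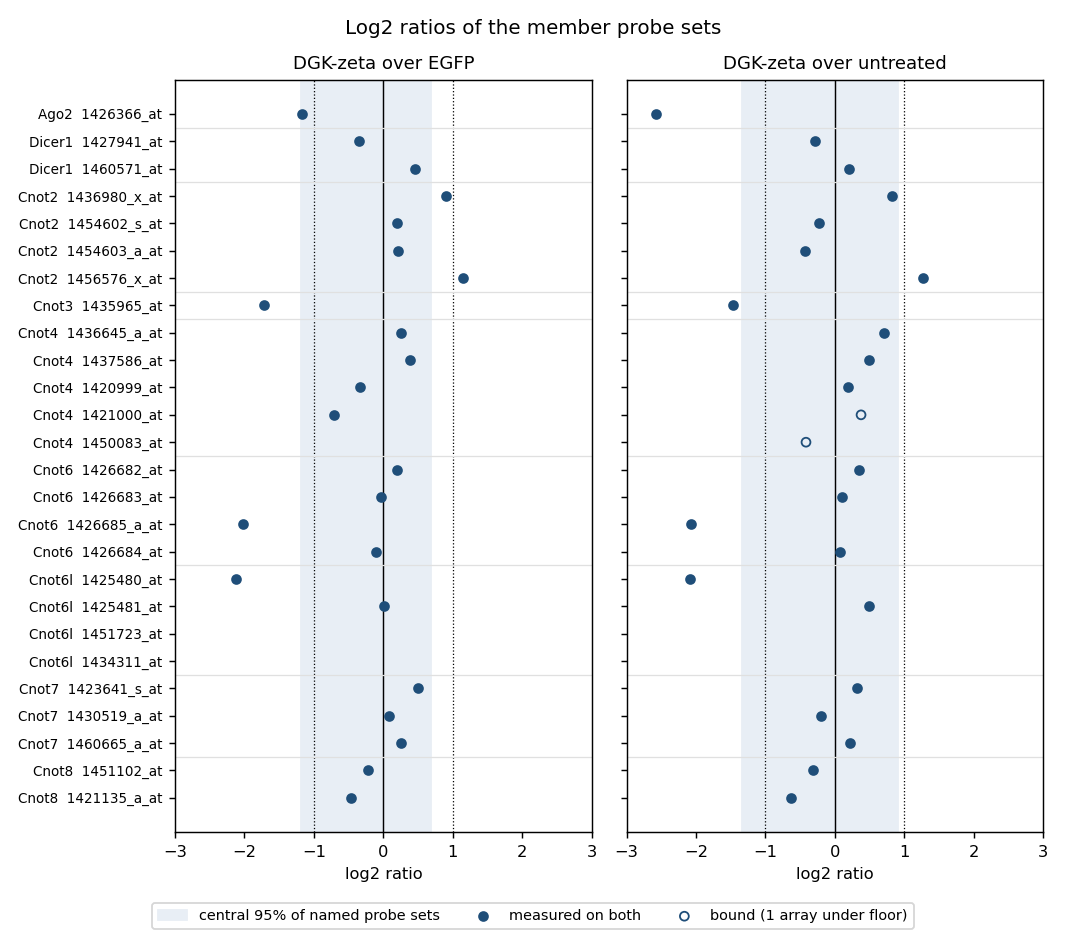
Log2 ratios of the member probe sets, DGK-zeta over EGFP on the left and DGK-zeta over untreated on the right; filled points were measured on both arrays, open points are bounds, dotted lines mark 2-fold and the shaded band holds the central 95% of named probe sets. Cnot6 has 1 point near -2 and 3 near 0, Cnot6l has 1 near -2 and 1 other, and the 2 Cnot6l rows under the floor on all arrays have no point.

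Cnot7 and Cnot8 encode the alternative Caf1-type deadenylases, the subunits that BTG and TOB proteins bind. None of their 5 probe sets was further than 1.54-fold from a control. Cnot7 1423641_s_at had signals of 1802 in DGK-zeta cells, 1278 in EGFP cells and 1449 in untreated cells (log2 ratio 0.50 over EGFP and 0.31 over untreated). Cnot7 1430519_a_at had 403 in DGK-zeta cells, 381 in EGFP cells and 465 in untreated cells (log2 ratio 0.08 over EGFP and -0.21 over untreated), and Cnot7 1460665_a_at had 238 in DGK-zeta cells, 199.6 in EGFP cells and 204 in untreated cells (log2 ratio 0.26 over EGFP and 0.22 over untreated). For Cnot7 the DGK-zeta array was thus the highest by 2 of 3 probe sets. Cnot8 1451102_at had 513 in DGK-zeta cells, 598 in EGFP cells and 639.6 in untreated cells (log2 ratio -0.22 over EGFP and -0.32 over untreated), and Cnot8 1421135_a_at had 417 in DGK-zeta cells, 576 in EGFP cells and 644 in untreated cells (log2 ratio -0.47 over EGFP and -0.63 over untreated). Both Cnot8 probe sets were lowest in DGK-zeta cells, and by the smaller of both drops Cnot8 1421135_a_at came next after the 4 counted as 2-fold lower.

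**Figure D3:**
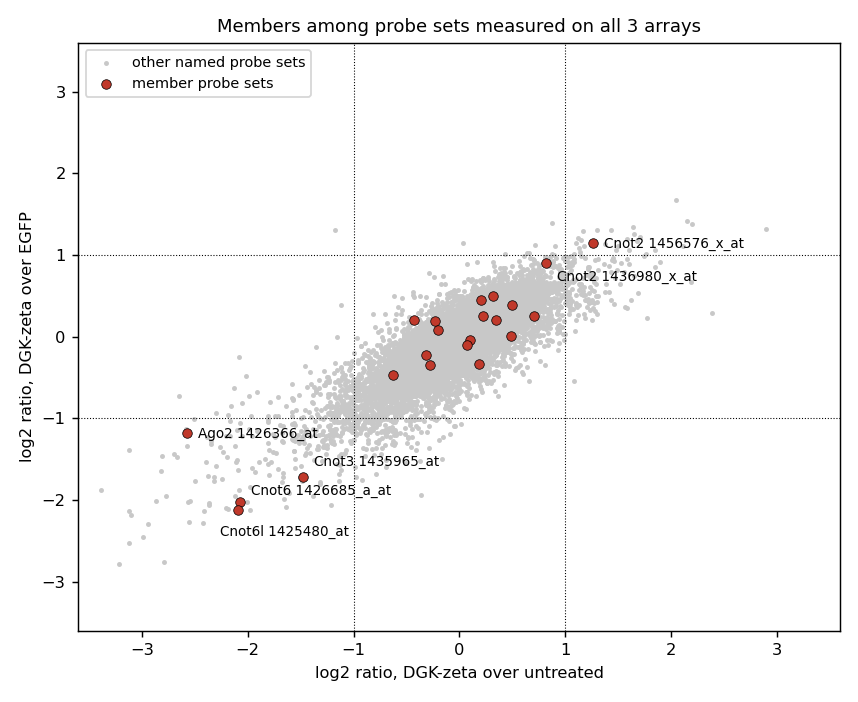
Log2 ratio of DGK-zeta over EGFP (vertical axis) against DGK-zeta over untreated (horizontal axis) for the 9688 named probe sets measured on all 3 arrays, with the 22 member probe sets among them in red and 3 probe sets beyond the axes; dotted lines mark 2-fold. Ago2, Cnot3, Cnot6 1426685_a_at and Cnot6l 1425480_at lie in the lower left corner, Cnot2 1456576_x_at in the upper right one, and both axes share the DGK-zeta array.

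The promoters of the CCR4-NOT genes with a low probe set are shown because Cnot3, Cnot6 and Cnot6l each had 1 probe set with less signal on the same array, though other probe sets of Cnot6 and Cnot6l did not. RefSeq promoter windows (build GRCm38.p6, 250 bases before to 50 after a gene's start) were found for 8 of the 10 symbols. Ago2 and Cnot7 had none, and Ago1, which has no array values here, is among the 8. The first listed window was used where a gene had several. In capitals is each GC box, taken as the letters GGGCGG on either strand, which the transcription factor Sp1 can bind.
Cnot3, chr7:3645019-3645318, plus strand: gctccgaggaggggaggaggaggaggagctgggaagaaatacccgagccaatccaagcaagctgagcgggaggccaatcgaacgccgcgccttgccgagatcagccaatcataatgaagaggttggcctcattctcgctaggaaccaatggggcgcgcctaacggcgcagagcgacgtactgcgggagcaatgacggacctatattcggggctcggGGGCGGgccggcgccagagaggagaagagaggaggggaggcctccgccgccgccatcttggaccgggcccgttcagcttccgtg
Cnot6, chr11:49712673-49712972, minus strand: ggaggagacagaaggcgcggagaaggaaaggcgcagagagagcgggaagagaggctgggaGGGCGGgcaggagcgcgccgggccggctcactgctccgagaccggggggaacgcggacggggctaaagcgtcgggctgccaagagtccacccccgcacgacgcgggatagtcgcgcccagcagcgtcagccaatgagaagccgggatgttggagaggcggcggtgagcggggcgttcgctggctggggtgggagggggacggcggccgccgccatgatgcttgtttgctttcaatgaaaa
Cnot6l, chr5:96161941-96162240, minus strand: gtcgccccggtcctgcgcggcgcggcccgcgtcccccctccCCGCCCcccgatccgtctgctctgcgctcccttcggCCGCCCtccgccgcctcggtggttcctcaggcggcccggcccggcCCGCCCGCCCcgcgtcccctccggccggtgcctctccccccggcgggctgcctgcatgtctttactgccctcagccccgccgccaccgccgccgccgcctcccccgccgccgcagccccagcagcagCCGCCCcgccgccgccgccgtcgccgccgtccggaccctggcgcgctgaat
The Cnot3 and Cnot6 windows hold 1 GC box each and that of Cnot6l holds 5, overlaps counted. All 3 are rich in G and C, at 64.3% for Cnot3, 68.7% for Cnot6 and 82.7% for Cnot6l, beside a median of 52.7% over all 32851 promoter windows. A GC box was in the first window of 7 of the 8 genes, Cnot8 being the exception, and in 35.7% of all windows. Cnot8 had 4 windows, of which window 3 held 2 GC boxes and window 4 held 1. The shares of all windows are not limited to first windows. The TATA box letters TATAAA were in none of the 8 first windows and in 13.6% of all windows. The GC box was thus in windows of members with low probe sets and of members without them.

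Other genes of the pathway were taken as 6 lists of 99 genes, of which 76 had 158 probe sets. Their median log2 ratio over EGFP was -0.0035. Of 117 ratios over EGFP, 4 were at least 2-fold lower and 2 higher, where 4.28% of all named probe sets were lower and 0.497% higher. Against untreated cells the median was 0.03, with 10 of 120 lower and 6 higher, where 5.21% of all were lower and 1.84% higher. Of 116 probe sets with both ratios, 3 lay 2-fold or more below both controls and 1 above, in 2 of the lists, where 2.71% of all were lower and 0.423% higher.

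Poly(A)-binding genes held 3 of these 4. Pabpn1, the nuclear poly(A)-binding protein that sets tail length, was lower by several probe sets. Pabpn1 1422848_a_at had signals of 1859 in DGK-zeta cells, 3721 in EGFP cells and 4539 in untreated cells (just past 2-fold lower than EGFP, and a log2 ratio of -1.29 over untreated), and Pabpn1 1422850_at had 155 in DGK-zeta cells, 336 in EGFP cells and 325 in untreated cells (log2 ratio -1.11 over EGFP and -1.07 over untreated). The brightest, Pabpn1 1422849_a_at, had 4136 in DGK-zeta cells, 7694 in EGFP cells and 9209 in untreated cells, with log2 ratios of -0.90 over EGFP and -1.16 over untreated. Another, Pabpn1 1415728_at, had 455 in DGK-zeta cells, 540.1 in EGFP cells and 455 in untreated cells. With arrays scaled to one median over all named probe sets no probe set of this list was 2-fold lower than EGFP. Pabpc1, the main cytoplasmic poly(A)-binding protein, was at least 4.61-fold higher by 1453840_at, with 494 in DGK-zeta cells and values under the floor of 94.5 in EGFP and 59.6 in untreated cells. Its far brighter probe set 1418883_a_at had 12686 in DGK-zeta cells, 13982 in EGFP cells and 14678 in untreated cells.

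Among RNA-binding proteins that can recruit CCR4-NOT, Celf1 1427413_a_at had 440.2 in DGK-zeta cells, 1049 in EGFP cells and 1228 in untreated cells (log2 ratio -1.25 over EGFP and -1.48 over untreated), while the brightest Celf1 probe set, 1426407_at, had 4352 in DGK-zeta cells, 4008 in EGFP cells and 4134 in untreated cells. The other measured Celf1 probe sets were lower by less over EGFP, with log2 ratios of -0.51 over EGFP and -0.47 over untreated for Celf1 1426408_at and of -0.59 over EGFP and -1.27 over untreated for Celf1 1425932_a_at. In the BTG/TOB family, Tob1 had 1145 in DGK-zeta cells, 749.9 in EGFP cells and 505 in untreated cells, and the brighter Btg2 probe set had 117 in DGK-zeta cells, 116 in EGFP cells and 94.7 in untreated cells. Btg1 had log2 ratios over EGFP of 0.003 by 1426083_a_at and 0.24 by 1437455_a_at, and over untreated of 0.16 and 0.21. Tob2 had 0.17 over EGFP and 0.05 over untreated by 1448667_x_at, and 0.05 over EGFP and 0.68 over untreated by 1448666_s_at. Tob2 1417309_at was under the floor in DGK-zeta cells, at 75.9, with 178 in EGFP cells and 147 in untreated cells. Of the other CCR4-NOT subunits, Cnot9, which contacts the microRNA silencing partners of Argonaute, had 956 in DGK-zeta cells, 1228 in EGFP cells and 1088 in untreated cells (log2 ratio -0.36 over EGFP and -0.19 over untreated). It was the 1 gene of 4 in that list with a probe set named for it alone. The microRNA processing and Argonaute partner lists had no probe set counted as 2-fold apart from EGFP in either direction, among 21 and 29 ratios. The 29 include Tnrc6b 1426545_at, which was under the floor in DGK-zeta cells, so its ratio is a bound. Against untreated cells, 3 of the microRNA processing list were higher and 2 of the Argonaute partners lower. For microRNA processing the count higher than EGFP was 1 under quantile normalization, where 1.06% of all named probe sets were. With arrays scaled to one median over all named probe sets it was 2, where 3.01% of all were. Decapping and decay genes had none lower and 1 higher than EGFP among 20, Lsm14b 1455155_at at 897 in DGK-zeta cells, 445 in EGFP cells and 664 in untreated cells, named after its values were seen. Against untreated cells 3 of 22 were lower and 0 higher. The lower ones were Ddx6 1439122_at, Ddx6 1424598_at and Xrn2 1422842_at, also named after their values were seen. Xrn2 1422842_at had 389 in DGK-zeta cells, 572 in EGFP cells and 922 in untreated cells. Xrn2 1450777_at had 865 in DGK-zeta cells, 923 in EGFP cells and 1094 in untreated cells.

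**Figure D4:**
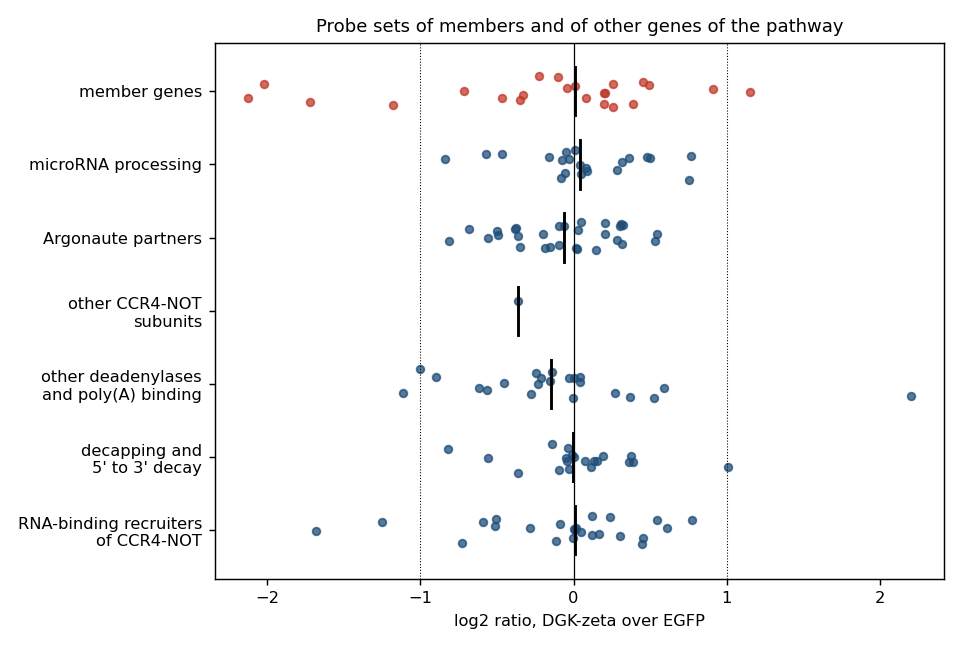
Log2 ratio of DGK-zeta over EGFP for the probe sets of the member genes (red) and of the 6 lists of other pathway genes (blue); each point is a probe set, spread vertically for legibility, the black bar is the median and dotted lines mark 2-fold. The list medians lie between -0.36, from the single Cnot9 probe set, and 0.04.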

How the data were processed

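C2C12 RNA from 3 samples was labelled with biotin by a one-cycle protocol and hybridised to 1 array per sample, per the labels' protocols. The deposited table holds 1 linear intensity per probe set and array, from MAS5 according to the submitters' processing notes. No version, target or detection call of MAS5 is stated in the labels. Each array's mean between its 2nd and 98th percentile was 499.9 or 499.95, so no further scaling was applied.

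Of 22690 probe sets, 64 are controls, 20380 have 1 gene symbol in the platform annotation, 691 several and 1555 none. Values under the floor were set to it before log2. Where 1 of both arrays was under the floor the ratio is a bound, and where both were none is given. Shares of called probe sets are over those with a ratio. Members and gene lists were chosen with earlier results of these data known. Named genes are the members, Dgkz, pathway probe sets 2-fold apart from both controls, Cnot9, controls, and the 3 nearest patterns of each member whose brightest probe set was 2-fold apart from both. The Pabpn1, Pabpc1 and Celf1 probe sets beside those, Tob1, Tob2, Btg1, Btg2 and marker genes were added for context. Alternatives were 3 scalings, 2 floors, no floor, a pseudocount of 3.17, leaving out suffixes _x_at, _s_at and _a_at, and rules of 1.5-fold and 3-fold. The number of arrays limits the precision. The counting was tested on simulated data, with changes planted only in probe sets far above the floor. These were brighter on the control arrays than any member probe set, so the counting was not tested at member signals. Python 3.11.15, numpy 2.4.6, pandas 2.3.3 and matplotlib 3.10.9 were used.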

Additional observations from a re-analysis of the deposited data

How the results depend on the processing

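A probe set with signals near the floor gives a ratio that depends on where the floor is set, and a single array per group leaves the spread between cultures unmeasured. No paired analysis was possible because each group has 1 array. For member ratios of at least 2-fold, 49 recomputed values differed from the reported one, of which 42 stayed at least 2-fold in their direction and 0 reversed, and 1 more (Cnot3 over untreated) had no value with a floor at the 75th percentile. The count of probe sets 2-fold lower than both controls, 4, was 1 (Cnot6) with a floor at the 75th percentile (561.5), where 0.936% of all were. Under a 3-fold rule it was 2 (Cnot6 and Cnot6l). With that higher floor the counts were also 1 lower than EGFP (1.22% of all) and 2 lower than untreated (2.26% of all). Then 0 were higher than EGFP (0.291% of all), untreated (1.17% of all) or both (0.262% of all). Between EGFP and untreated 0 were higher (0.164% of all). The medians with that floor were -0.058 over untreated and -0.054 for EGFP over untreated. The 3-fold rule left 0 higher in all comparisons and 0 lower between EGFP and untreated. Under a 1.5-fold rule 2 were higher than EGFP, 3 higher than untreated, 2 higher than both, and 2 lower between EGFP and untreated. The shares of all named probe sets past 1.5-fold and 3-fold are not given here, so nothing is read from those counts. Scaling the arrays to one median over all named probe sets moved the median of all from -0.05 to 0.30 over EGFP and to 0.20 over untreated. With this scaling 2 were higher than EGFP (3.01% of all), 2 higher than untreated (4.46% of all) and 2 higher than both (1.85% of all). Between EGFP and untreated 0 were higher (0.186% of all). The shares over all thus rose too, from 0.497% over EGFP, 1.84% over untreated and 0.423% over both. Member medians were 0.32 over EGFP, 0.27 over untreated and -0.10 for EGFP over untreated. Equal medians over measured probe sets gave 2 higher than EGFP (0.886% of all). Quantile normalization gave 0 higher between EGFP and untreated (0.39% of all) and a median of 0.15 over EGFP. Without the suffixes _x_at, _s_at and _a_at, 16 probe sets remained, with 0 higher than EGFP, untreated or both. Of all named probe sets with suffix _at, 0.32% were higher than EGFP and 1.29% higher than untreated. The member medians were -0.22 over EGFP and 0.12 for EGFP over untreated. In that setting Cnot6 had no low probe set. With a floor at the 25th percentile, or none, Cnot4 1450083_at joined the 4 lower ones, at -2.00 over untreated. The pseudocount gave it -1.91. Of all named probe sets, 4.96% were lower than both controls with the floor at the 25th percentile and 9.09% with none. The causes of these moves were not tested beyond what each setting does by construction.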

Other observations

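Some genes of messenger RNA decay differed between the arrays without being counted as 2-fold apart from both controls. They are named here after their values were seen. For Ddx6 1439122_at and Ddx6 1424598_at both arrays were under the floor over EGFP, and for Tnrc6b the DGK-zeta array was. Whether these probe sets were 2-fold below EGFP cells therefore cannot be told. Ddx6, the helicase that links CCR4-NOT to decapping, had 2 probe sets that reached the floor in untreated cells alone. Ddx6 1439122_at had signals of 8.31 in DGK-zeta cells, 57.6 in EGFP cells and 317 in untreated cells, and Ddx6 1424598_at had 19.1 in DGK-zeta cells, 87.0 in EGFP cells and 241 in untreated cells. The third Ddx6 probe set, 1434697_at, had 750.1 in DGK-zeta cells, 747 in EGFP cells and 661 in untreated cells. Pum2, a Pumilio protein that binds 3' untranslated regions of messages, had 331 in DGK-zeta cells, 1060.3 in EGFP cells and 573 in untreated cells by 1418015_at. By 1418016_at it had 1559 in DGK-zeta cells, 1433 in EGFP cells and 1704 in untreated cells. By 1418017_at it had 1046 in DGK-zeta cells, 1049 in EGFP cells and 852 in untreated cells. Tnrc6b, a partner of Argonaute, had 50.9 in DGK-zeta cells, 136 in EGFP cells and 230.4 in untreated cells by its 1 probe set.

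The probe sets of Ddx5, a helicase of the Drosha complex, with the suffix _x_at were at least 2-fold higher in DGK-zeta than in untreated cells, but not than in EGFP cells. Their log2 ratios over EGFP were 0.77 for Ddx5 1433810_x_at, 0.75 for Ddx5 1438371_x_at and 0.50 for Ddx5 1454793_x_at. Those of EGFP over untreated were 0.49 for Ddx5 1433810_x_at, 0.45 for Ddx5 1438371_x_at and 0.79 for Ddx5 1454793_x_at. The log2 ratios of DGK-zeta over untreated were 1.26 for Ddx5 1433810_x_at, 1.20 for Ddx5 1438371_x_at and 1.29 for Ddx5 1454793_x_at, beside 0.30 for Ddx5 1419653_a_at and -0.12 for Ddx5 1423645_a_at. Over all named probe sets the median log2 ratio over untreated was 0.19 for the 806 with suffix _x_at and -0.07 for the 6846 with suffix _at, and that over EGFP was 0.12 and -0.08.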
